A study of Homo sapiens with 6 samples.

Results

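E-cadherin and the genes around its loss form a set of 10, taken by symbol from the gene table: the cadherin genes CDH1, CDH2 and CDH3, the epithelial regulators GRHL2 and ESRP1, the repressors SNAI2 and ZEB1, and the mesenchymal products VIM, FN1 and TNC. Of the 10, 9 had a row among the 17156 genes of the table, and 7 of these passed a filter on low counts that left 12671 genes. CDH2 and VIM fell below it, and GRHL2 was not analysed here. The cells were SiHa, cells of a cervical squamous carcinoma that carry human papillomavirus DNA, and all libraries came from cells given 20 µM cisplatin, a drug that crosslinks DNA, for 48 h. In 3 libraries the cells carried the control construct (shcontrol), and in the other 3 VPS13C, the gene of a bridge-like lipid transfer protein, was knocked down (shVPS13C). No untreated cells were analysed here, and the labels do not say whether either line is a clone or whether the replicates came from separate cultures. The p-values therefore rest on how these libraries vary, which may be technical variation alone.

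E-cadherin is the calcium-dependent adhesion receptor that joins epithelial cells at adherens junctions, where catenins tie its cytoplasmic tail to actin. In an epithelial-mesenchymal transition, zinc finger repressors such as SNAI2 and ZEB1 bind E-box motifs at the CDH1 promoter and lower its transcription, while N-cadherin, vimentin, fibronectin and tenascin-C often increase. GRHL2 and ESRP1 act on the epithelial side: the first is a transcription factor that sustains CDH1 and opposes ZEB1, and the second an RNA-binding protein that keeps epithelial splice forms.

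Library totals ran from 15643965 to 16333424 estimated counts. The knockdown was visible in its target: VPS13C stood at 50.0, 54.9 and 49.6 CPM (counts relative to a fixed total, after scaling of library sizes) in shcontrol 1, 2 and 3, and at 23.7, 25.1 and 27.5 CPM in shVPS13C 1, 2 and 3, a fold of 0.494. Of 10 markers chosen for SiHa cells, KRT8, KRT18, KRT17, CDKN2A, SFN and PERP were abundant, while KRT5 and KRT6A were under 1 CPM and TP63, the basal squamous factor, lay between 0.898 and 1.69 CPM. The remaining marker, EPCAM, was low, at 3.7 to 5.1 CPM over the libraries. Of 9 fibroblast markers 8 averaged under 1 CPM over the libraries, and the summed level of the list was 16.2 to 16.7 CPM in shcontrol and 21.1 to 23.5 CPM in shVPS13C, nearly all of it from COL1A1. Endothelial markers summed to 3.13 to 3.32 CPM in shcontrol and 2.14 to 3.999 CPM in shVPS13C, with TEK at 0 in all libraries. Leukocyte markers summed to 80.3 to 82.4 CPM in shcontrol and 88.2 to 89.7 CPM in shVPS13C, all but a little from CD68 and CD14, with PTPRC, which defines leukocytes, at 0 in all libraries. CD14, a co-receptor for lipopolysaccharide, rose (log2 0.34, edgeR adjusted p = 0.00513), and the part of these lists in the results was not tested.

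CDH1 and TNC rose in shVPS13C, with folds of 1.21 and 1.19, so a gene of the epithelial side and a gene of the mesenchymal side moved the same way. The other 5 tested genes did not pass the test: ZEB1 was lower in every shVPS13C library but missed the threshold, FN1 was higher on average with overlapping groups, and CDH3, SNAI2 and ESRP1 lay within the spread between replicates. The test was the edgeR quasi-likelihood test with Benjamini-Hochberg adjustment over all genes tested and a threshold of 0.05. Of the 7 tested genes 2 were called, both higher (28.6%), where over all genes 570 were called (4.5%), 2.27% higher and 2.23% lower. Groups did not overlap in 3 of the 7, CDH1 and TNC higher and ZEB1 lower, where over all genes this held in 23.1%, 11.8% higher and 11.3% lower. With so few genes, chosen with results of these data known, the shares are a description. CDH1 and TNC were not called when log2(FPKM + 1) was tested with limma-trend (adjusted p = 0.0569 and 0.127), and the call of TNC also ended without shVPS13C 3.

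**Figure D1:**
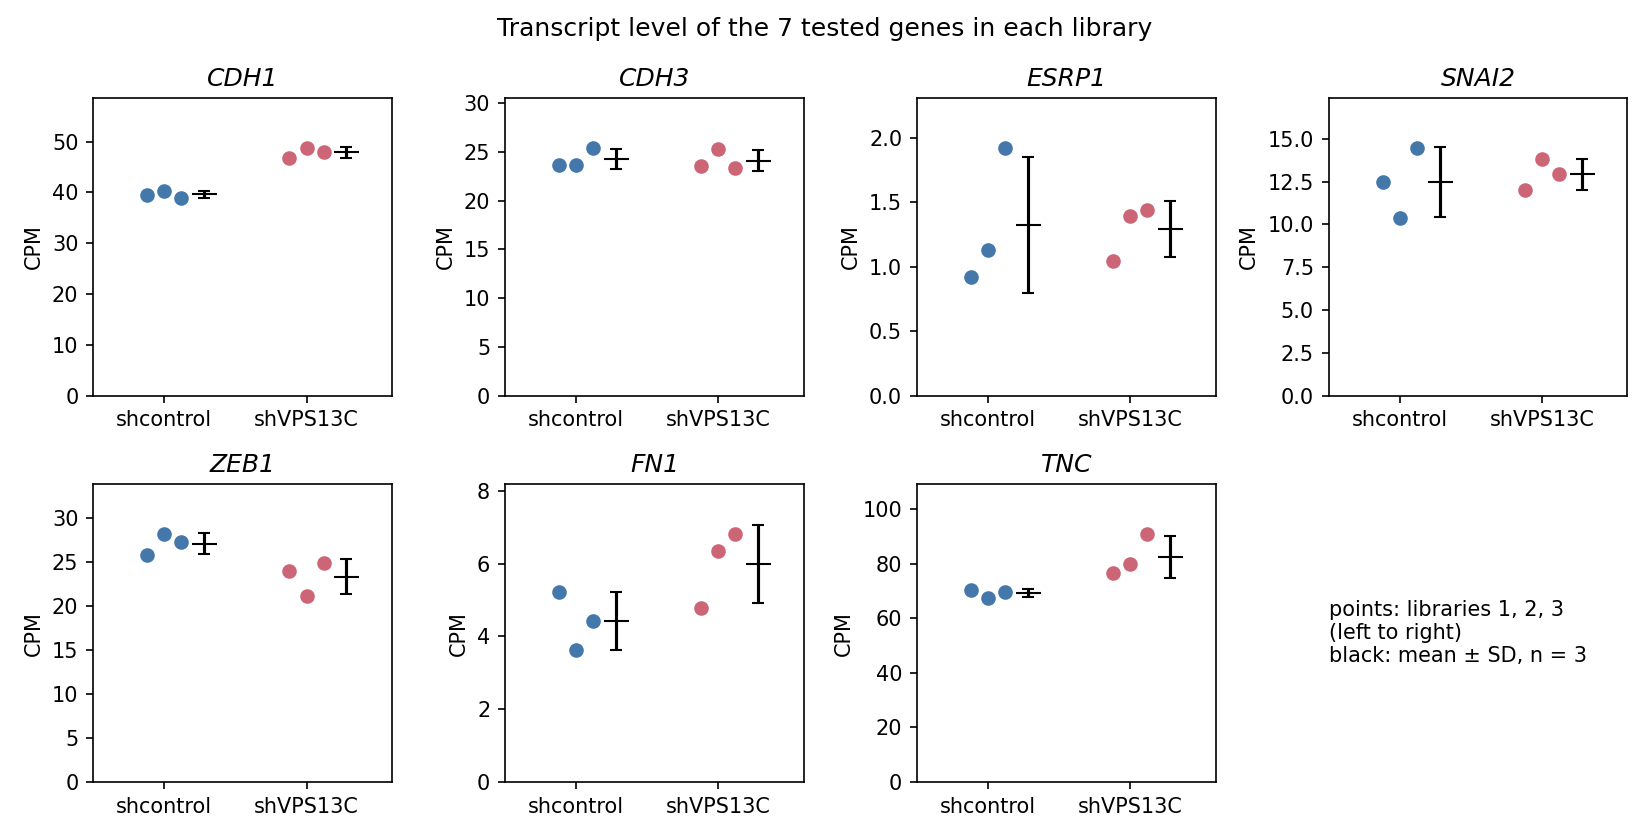
Transcript level in CPM (linear axes from 0) of the 7 tested genes in shcontrol (blue) and shVPS13C (red), with 1 point for each library and the mean ± SD (n = 3) in black. The groups lie apart for CDH1, TNC and ZEB1 and overlap for the other 4 genes.

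Among the cadherins, CDH1 (Entrez 999, chromosome 16, 68737292 to 68835537 on GRCh38) stood at 39.5, 40.4 and 39.0 CPM in shcontrol 1, 2 and 3 and at 46.8, 48.8 and 47.9 CPM in shVPS13C 1, 2 and 3. Each shVPS13C library was above every shcontrol library, and the 3 libraries of either group lay close together. The mean rose from 39.6 ± 0.698 to 47.9 ± 1.002 CPM (SD, n = 3), a fold of 1.21 and a log2 fold change of 0.27 (SE 0.053, with 0.16 to 0.38 as its 95% confidence interval, adjusted p = 0.00359 by edgeR). The call held without any 1 library, with an adjusted p of at most 0.0263 in those fits, and with DESeq2 (adjusted p = 0.0121). Of the exon bases of CDH1, 5.62% lie opposite AC099314.1, whose reads cannot be told apart without strand.

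CDH1 was listed with 2 transcripts, and NM_004360.5 took 96.2 ± 1.89% of its counts in shcontrol and 97.4 ± 0.647% in shVPS13C (SD, n = 3). That transcript held 631, 609 and 583 counts in shcontrol and 741, 755 and 743 in shVPS13C, again with no overlap. Its log2 fold change in the fit over all transcripts was 0.30 (SE 0.049, edgeR adjusted p = 0.405). In that fit 0 of 41617 transcripts passed (0%), with 2050 at an unadjusted p under 0.05, so the transcript values describe which forms were counted and test little. Of the 28 transcripts of the set that were tested, 2 had an unadjusted p under 0.05, NM_004360.5 and the TNC transcript XM_005251972.4.

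P-cadherin, the cadherin of basal epithelial cells, is encoded by CDH3 (Entrez 1001), which neighbours CDH1 on chromosome 16 (68645310 to 68733771). It stood at 23.6, 23.7 and 25.5 CPM in shcontrol and at 23.6, 25.3 and 23.3 CPM in shVPS13C. The groups covered nearly the same range, and the log2 fold change was -0.01 (SE 0.069, edgeR adjusted p = 0.962), with a 95% confidence interval of -0.15 to 0.13. A rise as large as that fitted for CDH1 lay outside this interval, although the difference between the 2 genes was not tested itself. Of the exon bases of CDH3, 11.1% lie opposite AC126773.2, so without strand part of its reads could come from there. Set per transcript length, in the FPKM of the authors, CDH1 exceeded CDH3 in every library, with a ratio of 1.15 to 1.28 in shcontrol and 1.45 to 1.58 in shVPS13C.

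N-cadherin, the mesenchymal and neural cadherin, had no counts: CDH2 (Entrez 1000, chromosome 18, 27932879 to 28177130) was at 0 in all 6 libraries. A count of 0 allows a level of up to 0.184 to 0.192 CPM in a library (3 counts, counting error only). CDH2 was represented by a single transcript, NM_001308176.2, where the RefSeq table used here gives 4, and whether reads from the other forms would have been counted was not tested.

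The wider cadherin list gave context for CDH1. Of 23 cadherin genes listed 6 were tested, and 2 rose, CDH1 and CDH24 (33.3%, beside 4.5% called over all genes). None fell, and the median log2 fold change was 0.22, beside -0.0010 over all genes tested. The share and the median both count CDH1 itself, and 4 of the 6 genes were above 0. The median lies between CDH13 (log2 0.22, edgeR adjusted p = 0.26) and CDH23 (log2 0.22, SE 0.436). Neither passed, and CDH23 had only 5 to 19 counts a library. CDH24, a cadherin that binds catenins, averaged 61.5 ± 2.87 CPM in shcontrol and 71.7 ± 3.55 CPM in shVPS13C (SD, n = 3). The rise in log2 was 0.22 (adjusted p = 0.0126 by edgeR), a call that ended without shcontrol 2 or shVPS13C 2. By FPKM, CDH24 made up 45.6% to 49.0% of the summed level of the listed cadherins in shcontrol and 47.5% to 48.5% in shVPS13C. CDH1 made up 21.1% to 22.0% in shcontrol and 22.0% to 23.1% in shVPS13C. CDH3 made up 16.9% to 18.5% and 14.6% to 15.7%.

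The catenins that hold E-cadherin to the cytoskeleton did not pass the test, although those of CTNNB1 and CTNND1 had groups that lay apart. Of 20 tested catenins and junction partners, 1 rose (5%, beside 4.5% called over all genes), none fell, and the median was 0.03. The gene that rose was NECTIN2, an immunoglobulin-like adhesion protein of adherens junctions, at 121, 126 and 130 CPM in shcontrol and 143, 147 and 141 CPM in shVPS13C (log2 0.19, SE 0.042, edgeR adjusted p = 0.00884). Its groups lay apart, and the call ended without shVPS13C 2. The catenin genes, named here after their values were seen, had log2 fold changes of 0.13 for CTNNB1 (adjusted p = 0.0885), 0.07 for CTNND1, 0.03 for JUP and -0.03 for CTNNA1.

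On the epithelial regulator side, ESRP1 (Entrez 54845, chromosome 8, 94641174 to 94707466) was barely counted, with 15, 18 and 30 counts in shcontrol 1, 2 and 3 and 17, 22 and 23 in shVPS13C 1, 2 and 3. In CPM this was 1.32 ± 0.529 and 1.29 ± 0.218 (SD, n = 3). The groups overlapped, the log2 fold change was -0.03 (SE 0.292, edgeR adjusted p = 0.972), and its 95% confidence interval of -0.63 to 0.57 would take in changes larger than that of CDH1 in both directions. Its paralog ESRP2, which regulates many of the same splice events, was far more abundant: 40.0, 42.2 and 42.3 FPKM in shcontrol and 43.4, 44.5 and 42.2 FPKM in shVPS13C, against 0.26 to 0.54 and 0.30 to 0.43 FPKM for ESRP1. ESRP2 had a log2 fold change of 0.07 (adjusted p = 0.444) and overlapping groups.

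Of 11 tested splicing regulators with epithelial or mesenchymal roles, 1 fell (9.09%, beside 4.5% called over all genes) and none rose. It was MBNL1, a muscleblind protein that controls splice choice during differentiation, at 230, 230 and 221 CPM in shcontrol and 178, 167 and 182 CPM in shVPS13C. Every shVPS13C library lay well below every shcontrol library, the fold was 0.773 and the log2 fold change -0.37 (SE 0.041, edgeR adjusted p = 6.02e-06). Without use of strand, part of its reads could come from other genes, since 15.6% of its exon bases lie opposite another gene. Its call held under all 12 alternatives tried. Of 11 tested epithelial transcription factors, 1 fell (9.09%) and none rose: KLF5, a zinc finger factor of proliferating epithelium, averaged 242 ± 3.42 CPM in shcontrol and 210.0 ± 7.66 CPM in shVPS13C (SD, n = 3). The change in log2 was -0.20 (adjusted p = 0.00315 by edgeR), a call that also held under all 12.

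For the repressors, which bind E-boxes (CANNTG, of which CACCTG and its reverse complement CAGGTG are the forms that SNAI2 and ZEB1 prefer), the starts of genes of the set show where such letters occur. RefSeq promoter windows on GRCh38.p14 matched 5 of the 10 genes, with 12 windows, and the 250 bases before the start were searched on both strands. The 5 genes were CDH2, ZEB1, VIM, FN1 and TNC. CDH1 had no window there, so its promoter was not searched. CACCTG was in 2 of the 12 windows, both among the 7 windows of ZEB1. Over all genes, CACCTG was in 17.5% of 35116 windows of the same length. CANNTG was in 6 of the 12 windows, beside 61.8% over all genes, and no window without CANNTG is shown. Shown are the TNC window, as the gene that rose with CDH1, and the 2 ZEB1 windows with CACCTG, since ZEB1 was the repressor whose groups lay apart. Capitals mark CANNTG, and each sequence runs 5′ to 3′ towards the start. A match describes letters only, and binding was not measured.
TNC, chr9:115118158-115118407, minus strand: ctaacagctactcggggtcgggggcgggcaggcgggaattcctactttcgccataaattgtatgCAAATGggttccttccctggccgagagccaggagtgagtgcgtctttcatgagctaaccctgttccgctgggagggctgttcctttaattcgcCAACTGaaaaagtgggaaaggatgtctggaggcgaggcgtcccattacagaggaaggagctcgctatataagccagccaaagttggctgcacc
ZEB1, chr10:31318167-31318416, plus strand: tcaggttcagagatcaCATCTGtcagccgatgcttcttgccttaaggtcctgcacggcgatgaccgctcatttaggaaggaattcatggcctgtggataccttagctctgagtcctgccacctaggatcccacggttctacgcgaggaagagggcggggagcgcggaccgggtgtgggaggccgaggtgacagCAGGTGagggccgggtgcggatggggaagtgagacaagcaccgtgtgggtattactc
ZEB1, chr10:31318966-31319215, plus strand: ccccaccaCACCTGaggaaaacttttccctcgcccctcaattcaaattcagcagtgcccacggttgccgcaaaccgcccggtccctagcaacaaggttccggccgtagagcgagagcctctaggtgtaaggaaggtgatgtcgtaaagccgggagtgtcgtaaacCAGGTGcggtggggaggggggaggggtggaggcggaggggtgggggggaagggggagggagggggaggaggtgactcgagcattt

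ZEB1 (Entrez 6935, chromosome 10, 31318417 to 31529804) stood at 25.7, 28.1 and 27.3 CPM in shcontrol 1, 2 and 3 and at 24.0, 21.1 and 24.8 CPM in shVPS13C 1, 2 and 3. The lowest shcontrol library was just above the highest shVPS13C library, so the groups lay apart by less than the spread within either. The log2 fold change was -0.21 (SE 0.073, with -0.36 to -0.06 as its 95% confidence interval) and did not pass (unadjusted p = 0.00723, edgeR adjusted p = 0.0994). It kept its sign in all 12 alternatives, from -0.26 to -0.15, and passed in none, with an adjusted p of 0.0684 to 0.351. The counts of ZEB1 were spread over 44 listed transcripts, of which the largest, NM_001174096.1, took 9.71 ± 1.39% in shcontrol and 8.70 ± 3.58% in shVPS13C (SD, n = 3). Of its exon bases, 4.23% lie opposite ZEB1-AS1, whose reads cannot be told apart without strand.

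The ratio of CDH1 to ZEB1, by FPKM, lay between 1.82 and 1.94 in shcontrol and between 2.45 and 2.93 in shVPS13C. The ratio joins the rise of CDH1 to the lower values of ZEB1 and was not tested.

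SNAI2 (Entrez 6591, chromosome 8, 48917598 to 48921429), the Slug repressor, stood at 12.5, 10.4 and 14.5 CPM in shcontrol and at 12.01, 13.8 and 13.0 CPM in shVPS13C. The shcontrol libraries alone covered a wider range than all shVPS13C libraries, and the log2 fold change was 0.05 (SE 0.103, with -0.16 to 0.27 as its 95% confidence interval, adjusted p = 0.829 by edgeR). All its counts fell on 1 transcript. Its paralog SNAI1, the Snail repressor, was several times more abundant per length, at 46.6, 43.6 and 43.2 FPKM in shcontrol and 48.6, 48.7 and 47.1 FPKM in shVPS13C, where SNAI2 ran from 5.51 to 7.59 FPKM. SNAI1 had groups that lay apart but did not pass (log2 0.11, adjusted p = 0.193). ZEB2, the paralog of ZEB1, was lower than it, at 1.03 to 1.18 FPKM over the 6 libraries, with a log2 fold change of -0.04 (adjusted p = 0.88). These paralogs were named after their values were seen.

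Over the whole list of transcription factors of epithelial-mesenchymal transition, 0 of 13 tested genes passed with edgeR (0%, beside 4.5% called over all genes). At such a share, 0 calls in so few genes is no result about the list. DESeq2 and limma-trend called 0 as well. The median log2 fold change was 0.05, and 5 of the 13 had an unadjusted edgeR p under 0.05, beside 2390 of 12671 over all genes. ZEB1 had the smallest p, and next to it came FOXQ1, a forkhead factor, at 5.94 ± 0.287 CPM in shcontrol and 7.35 ± 0.738 CPM in shVPS13C (SD, n = 3; log2 0.31, edgeR adjusted p = 0.153). Corepressors that SNAIL and ZEB proteins recruit gave the same count by these tools, 0 of 13, beside the same 4.5% over all genes. Of these 13, 3 had an unadjusted edgeR p under 0.05, and the median was -0.02. AJUBA, a LIM protein that binds SNAIL repressors, came nearest (log2 -0.12, edgeR adjusted p = 0.0988).

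**Figure D2:**
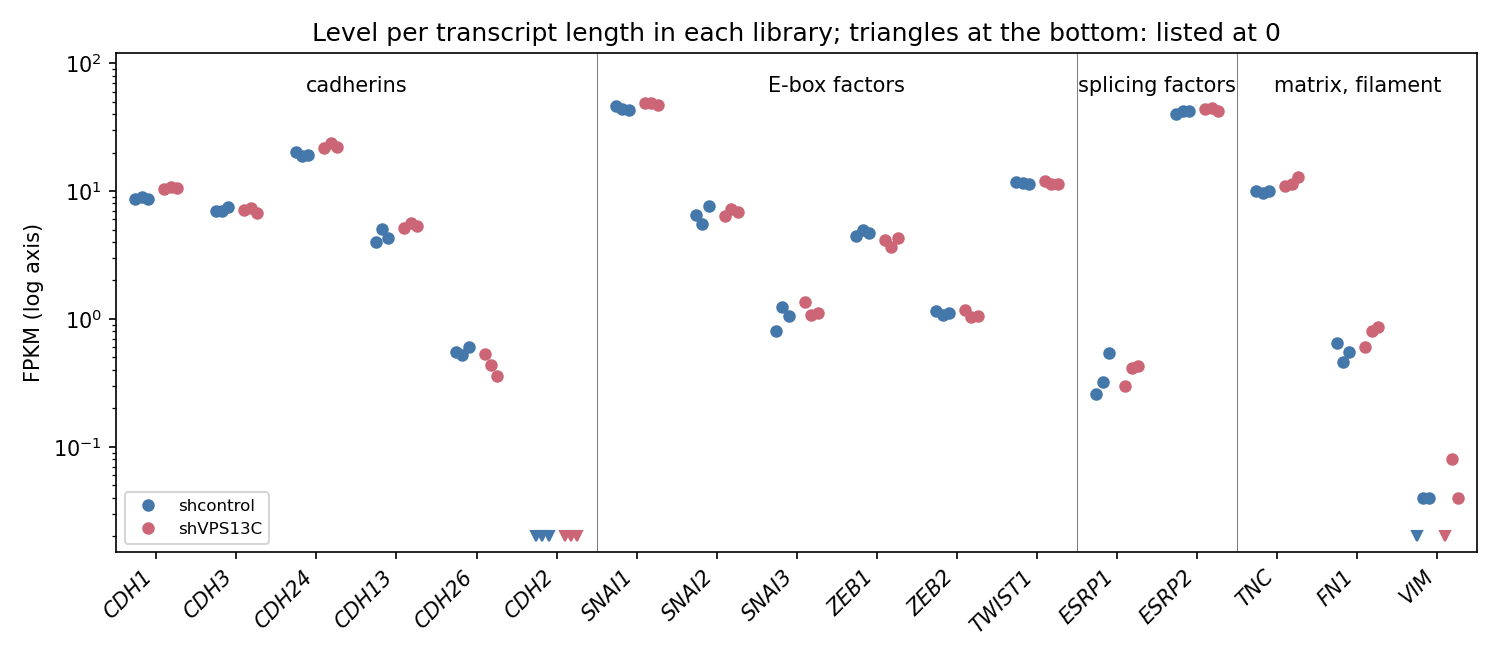
Level per transcript length (deposited FPKM, log axis) of genes of the set beside paralogs and relatives, with 1 point for each library, shcontrol in blue and shVPS13C in red, and triangles for libraries listed at 0. SNAI1 lies above SNAI2 and ESRP2 above ESRP1 in all libraries, CDH2 is listed at 0 throughout, and VIM is at or below 0.08 FPKM. CDH2 and VIM each rest on 1 listed transcript, so their levels may be understated.

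Of the mesenchymal products, TNC (Entrez 3371, chromosome 9, 115019575 to 115118157) encodes tenascin-C, an extracellular matrix glycoprotein of wounds and tumour stroma. It stood at 70.3, 67.4 and 69.7 CPM in shcontrol 1, 2 and 3 and at 76.4, 79.9 and 90.9 CPM in shVPS13C 1, 2 and 3. All shVPS13C libraries were above all shcontrol libraries, but they were spread more widely, with shVPS13C 3 the highest. The mean rose from 69.1 ± 1.53 to 82.4 ± 7.56 CPM (SD, n = 3), a fold of 1.19 and a log2 fold change of 0.25 (SE 0.054, with 0.14 to 0.36 as its 95% confidence interval, adjusted p = 0.00714 by edgeR). Without shVPS13C 3 the log2 fold change was 0.18 (adjusted p = 0.0837), and without any other library the call held.

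TNC counts fell mainly on XM_005251972.4, with 70.4 ± 9.21% in shcontrol and 73.2 ± 4.26% in shVPS13C, and on XM_006717097.4, with 23.4 ± 3.28% and 22.9 ± 3.35% (SD, n = 3). The shares of both overlapped between the groups.

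FN1 (Entrez 2335, chromosome 2, 215360865 to 215436068), the gene of fibronectin, was low, with 85, 58 and 69 counts in shcontrol and 78, 100 and 109 in shVPS13C. In CPM this was 4.43 ± 0.797 and 5.98 ± 1.07 (SD, n = 3), with shVPS13C 1 below shcontrol 1. The log2 fold change of 0.43 was the largest fitted in the set and also among the least precise (SE 0.155, with 0.11 to 0.75 as its 95% confidence interval), and it did not pass (unadjusted p = 0.0104, edgeR adjusted p = 0.12). Its counts were split over 24 listed transcripts, of which 3 passed the filter.

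VIM (Entrez 7431, chromosome 10, 17228241 to 17237593), the gene of the intermediate filament protein that is the usual mesenchymal marker, held 5 counts over all 6 libraries: 0, 1 and 1 in shcontrol and 0, 2 and 1 in shVPS13C. No library exceeded 0.127 CPM, which is under the level that a count of 0 allows, so no fold was computed. Only 1 VIM transcript, XM_006717500.2, was listed, and the transcript that the RefSeq table gives for VIM was not among the rows used here. Whether its reads were counted elsewhere or lost was not tested. Keratin transcripts differed widely, with KRT8 at 2104 to 2221 CPM over the libraries. KRT5 and KRT6A, like VIM, were under 1 CPM in every library.

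**Figure D3:**
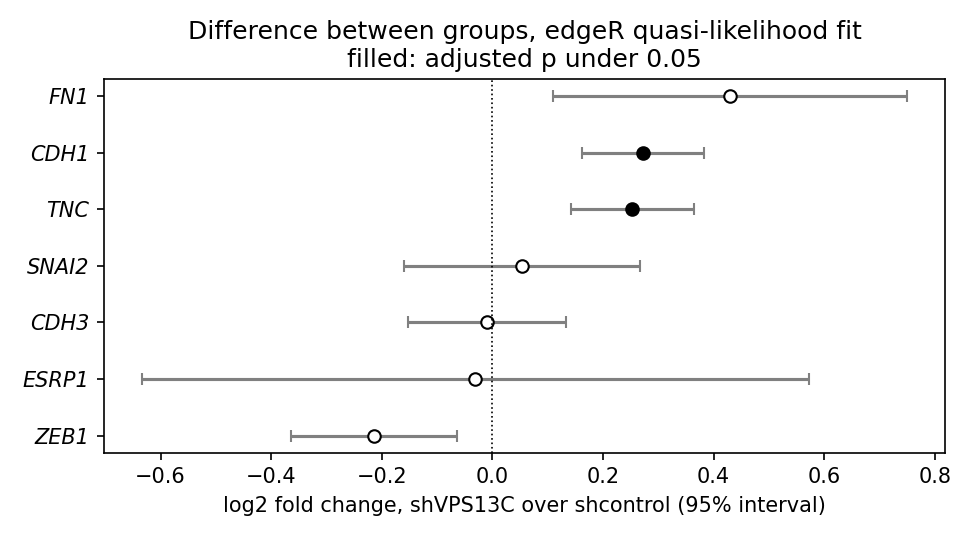
Log2 fold change of shVPS13C over shcontrol for the 7 tested genes, with 95% confidence intervals from the edgeR quasi-likelihood fit and filled points for an adjusted p under 0.05. CDH1 (0.27) and TNC (0.25) are filled, ZEB1 (-0.21) and FN1 (0.43) have intervals clear of 0 before adjustment, and the intervals of SNAI2, CDH3 and ESRP1 span 0.

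Ordered by FPKM in shcontrol, TNC (9.88 ± 0.165; SD, n = 3) was highest, followed by CDH1 (8.75 ± 0.203), CDH3 (7.17 ± 0.273), SNAI2 (6.55 ± 1.04) and ZEB1 (4.70 ± 0.225). Lower still were FN1 (0.553 ± 0.095) and ESRP1 (0.373 ± 0.147). VIM and CDH2 came last as listed, but each rests on 1 listed transcript, so their place in the order is uncertain. Among neighbours in this order, CDH3 and SNAI2 overlapped, as did FN1 and ESRP1, and the others down to ZEB1 lay apart. In shVPS13C the order was the same, with TNC at 11.7 ± 1.05, CDH1 at 10.6 ± 0.205, CDH3 at 7.09 ± 0.361, SNAI2 at 6.80 ± 0.455, ZEB1 at 4.05 ± 0.336, FN1 at 0.753 ± 0.136 and ESRP1 at 0.38 ± 0.07 FPKM. There FN1 and ESRP1 lay apart, and CDH3 and SNAI2 again overlapped.

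Other mesenchymal genes moved in both directions. Of 22 tested genes of mesenchymal matrix and cytoskeleton, 3 rose and 2 fell (22.7%, beside 4.5% called over all genes). The other 17 did not pass, and the median was 0.07. Beside TNC, the fibrillar collagen genes COL1A1 and COL5A1 rose. COL1A1 stood at 14.7, 14.6 and 14.9 CPM in shcontrol and at 20.8, 20.6 and 18.4 CPM in shVPS13C (log2 0.43, edgeR adjusted p = 0.00171). It is also a fibroblast marker, while COL1A2, DCN, LUM, PDGFRA, PDGFRB, THY1 and FAP were under 1 CPM in every library of both groups. COL3A1, the other marker of that list, stood at 0.492, 0.752 and 0.769 CPM in shcontrol and at 1.164, 1.079 and 0.939 CPM in shVPS13C, with groups that lay apart and no call (log2 0.66, edgeR adjusted p = 0.277). COL5A1 averaged 16.8 ± 1.16 CPM in shcontrol and 22.4 ± 2.50 CPM in shVPS13C (SD, n = 3). It rose by 0.42 in log2 (adjusted p = 0.00442 by edgeR), and its call ended without shVPS13C 2.

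Among the genes that fell was AXL, a receptor tyrosine kinase linked to invasive states. AXL stood at 76.5, 77.2 and 77.1 CPM in shcontrol and at 62.3, 68.1 and 65.8 CPM in shVPS13C (log2 -0.23, edgeR adjusted p = 0.00408), and lost its call without shVPS13C 1. Receptors for fibronectin and tenascin-C gave 0 edgeR calls among 8 tested (0%, beside 4.5% called over all genes). DESeq2 gave 1 call, and the median was -0.04. Of the 8, 3 had an unadjusted edgeR p under 0.05, beside 2390 of 12671 over all genes. The integrin gene ITGB1 came nearest by edgeR (log2 -0.12, adjusted p = 0.0932), and another gene shares 8.86% of its 50-base stretches. ITGB1 passed without shcontrol 3 (edgeR adjusted p = 0.0424) and did not pass with DESeq2 (adjusted p = 0.0756).

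Epithelial state genes were mixed as well: of 16 tested, 2 rose and 1 fell (18.8%, beside 4.5% called over all genes). The other 13 did not pass, and the median was -0.04. ERBB3, a receptor of the EGFR family, stood at 24.2, 24.1 and 23.9 CPM in shcontrol and at 28.7, 28.4 and 28.4 CPM in shVPS13C (log2 0.24, edgeR adjusted p = 0.0284). CDS1, a CDP-diacylglycerol synthase, averaged 12.4 ± 0.486 CPM in shcontrol and 15.3 ± 0.495 CPM in shVPS13C (SD, n = 3), a log2 rise of 0.31 (adjusted p = 0.0335 by edgeR). Both calls were close to the threshold and ended with DESeq2 and on leaving out any 1 library.

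**Figure D4:**
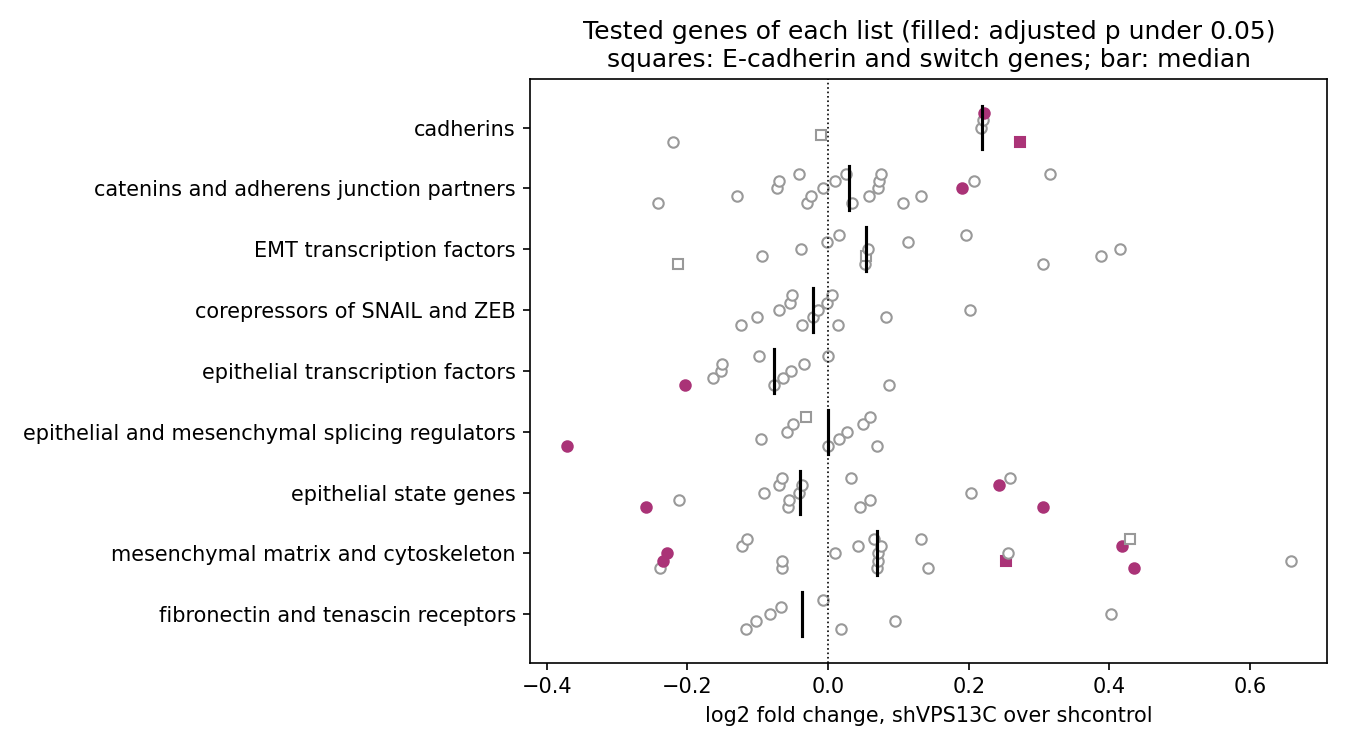
Log2 fold change of shVPS13C over shcontrol for each tested gene of the 9 lists, with filled symbols for an adjusted p under 0.05, squares for genes of the set and a bar at the median of each list. Called genes lie on both sides of 0 among epithelial state genes and among mesenchymal genes. No gene is called among the transcription factors of epithelial-mesenchymal transition, the corepressors and the receptors, where over all genes 4.5% were called.

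Across the 9 lists, 120 of 176 distinct genes were tested, 8 rose and 5 fell, where over all genes 4.5% were called. The lists were chosen with earlier results of these data known, so the counts are a description. The median log2 fold change of the 120 genes was 0.003, and 51.7% were above 0, beside 49.6% of all genes tested. Of these 13 called genes, KLF5 and MBNL1 kept their call in both limma-trend fits on FPKM, and the other 11 did not.

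The 5 genes whose pattern over the 6 libraries was most like that of CDH1 were NPTX1, SLC16A3, LPCAT3, SLC25A42 and ERBB3. Likeness was the root mean square difference of log2(CPM + 0.5) after subtracting the shcontrol mean. It was computed for 10698 genes that averaged 5 CPM or more and ran from 0.0233 for NPTX1 to 0.0328 for ERBB3. Genes chosen in this way rise about as much as CDH1, so their rises and p-values follow from the choice and are a description. NPTX1, a neuronal pentraxin gene, stood at 108 ± 0.312 CPM in shcontrol and 132 ± 1.93 CPM in shVPS13C (SD, n = 3; log2 0.30, edgeR adjusted p = 8.84e-05). SLC16A3, the lactate exporter MCT4, had a log2 fold change of 0.27 (adjusted p = 2.15e-04), and LPCAT3, an enzyme of phospholipid remodelling, of 0.24 (adjusted p = 0.00234), with 65.6% of its exon bases opposite EMG1. SLC25A42, a mitochondrial carrier, had 0.27 and did not pass (adjusted p = 0.0965).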

How the data were processed

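Total RNA of 6 SiHa libraries, 3 shcontrol and 3 shVPS13C by the titles in the labels, was sequenced from one end to 50 bases, per the labels' protocols. The build is hg38, per the submitters' processing notes; for the aligner, the counter, the annotation and the use of strand, nothing is given in the sources used here. The authors deposited estimated counts per gene and per transcript and FPKM per gene, per the file headers; 14.7% to 15.6% of counts per library were not whole. A further 30 per-sample columns were not used, nor were 16 columns of means. The counts of a gene's transcripts added up to the gene's own count within 0.06.

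Counts were rounded, filtered with filterByExpr (minimum count 10) and scaled by TMM. The groups were compared in edgeR 4.0.16 (R 4.3.3) with the quasi-likelihood test, two-sided, no covariate, 4 residual degrees of freedom, Benjamini-Hochberg adjustment over 12671 genes or 41617 transcripts. SE and intervals come from that fit. DESeq2 1.42.0 and limma 3.58.1 served as alternatives, FPKM with a pseudocount of 1 or 0.1. The steps were tested on simulated data. Coordinates and promoters come from RefSeq tables on GRCh38.p14, exon overlaps and shared 50-base stretches from GENCODE release 29 on GRCh38.

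The set of genes and the 9 lists were chosen with earlier results of these data known. Named genes were the set, VPS13C, up to 5 called genes by smallest p from each list (or the 1 with the smallest p) and the 5 most like CDH1. Of the genes this rule takes, 2 are counted in their lists and not reported here.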

Additional observations from a re-analysis of the deposited data

How the results depend on the processing

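The 570 changed genes became 321 with DESeq2, 147 with limma-trend on log2(FPKM + 1) and 151 on log2(FPKM + 0.1), and ran from 204 to 463 on leaving out 1 library, with 204, 273 and 274 without shVPS13C 1, 2 and 3. The 2 changed genes of the set became 0 with limma-trend at either pseudocount and 1 to 2 without 1 library. The 13 changed genes of the lists became 3 with limma-trend at either pseudocount and 7 to 14 without 1 library, 7 being without shVPS13C 2. The cause was not tested. With the replicate number as a block, 483 genes, 2 of the set, 12 of the lists and 0 transcripts of the set passed, with an edgeR adjusted p of 0.0504 for ERBB3, whose call ended, and 0.0417 for CDS1. Same-numbered libraries deviated from their group means with correlations of 0.0514, -0.0248 and -0.15, and unlike-numbered ones with -0.098 to 0.118. With 3 libraries a group, these values cannot show whether the numbers pair the libraries. Of the genes named, sign changed for 3, all near 0: ESRP1 stood at 0.011 and 0.053 with limma-trend at pseudocounts of 1 and 0.1 and at -0.24 to 0.33 without 1 library, CDH3 at -0.047 to 0.025 and SNAI2 at -0.059 to 0.17. The transcripts of the set gave 0 calls in all 8 alternatives run. Low counts limit precision: ESRP1, with 15 to 30 counts a library, had an SE of 0.292.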
